A study of Drosophila melanogaster with 4 samples.

Results

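The peaks described here are the Abrupt (Ab) ChIP-Seq peaks that lie near the centromeres of 4 chromosome arms of *Drosophila melanogaster*. They were taken by position alone, as every peak whose midpoint lay above 20 Mb on 2L, 3L or X, or below 2 Mb on 3R, in dm3 coordinates. By this rule 655 of the 10892 peaks of the *scrib1*+*ab* list (6.01%) and 508 of the 8881 peaks of the *ab* list (5.72%) were near a centromere, which is 1163 of 19773 peaks in all. The peaks on the rest of the same arms, 8281 of the *scrib1*+*ab* list and 6718 of the *ab* list, were used for comparison.

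The study asked where Ab, a BTB-zinc finger transcription factor, binds the genome in eye/antennal disc cells when it is overexpressed with or without loss of the cell polarity regulator *scrib*. Both lists came from mosaic eye/antennal imaginal discs of larvae 5 days after egg laying, in which clones were made with *ey-FLP1* and *FRT82B* (a recombination site at the base of 3R), marked with mCD8-GFP and driven by *Tub-GAL4*. In the *scrib1*+*ab* discs the clones were homozygous for *scrib1* and expressed *UAS-ab55*, whereas in the *ab* discs they expressed *UAS-ab55* alone. Ab was therefore overexpressed in both genotypes, the discs of both also held unmarked cells, and chromatin of about 100 discs per immunoprecipitation was pooled over 3 to 6 immunoprecipitations into 1 library per genotype, each called against its own input. With 1 library per genotype no difference between genotypes has a replicate check, so no p-values are given, and the 95% intervals below cover counting error only. The lists hold positions but no reads or peak heights, so the depth behind a peak is not known from them.

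On fly chromosome arms the gene-rich euchromatin passes near the centromere into pericentric heterochromatin, which is rich in repeated sequence and carries H3K9 methylation and the protein HP1. Fewer genes lie there, and those that do are often long and embedded in repeats. The windows used here were set by position and not by chromatin state. Where heterochromatin begins within them was not analysed, so their values are not values of heterochromatin alone. Positions run towards the centromere on 2L, 3L and X and away from it on 3R, so that the windows hold the last few Mb of the first group of arms and the first few Mb of 3R. Their lengths, from the border to the outermost peak of either list, were 2.96 Mb on 2L, 4.54 Mb on 3L, 2.00 Mb on 3R and 2.41 Mb on X, 11.9 Mb in all against 85.8 Mb on the rest of the arms.

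Ab peaks were sparser near the centromeres than on the rest of the arms in both genotypes. Density here is per Mb of assembled sequence. How much of that sequence reads could be placed on was not examined, so a lower density is not by itself less binding. The *scrib1*+*ab* list held 55.0 peaks per Mb near the centromeres (95% exact Poisson interval 50.9 to 59.4) and 96.5 per Mb on the rest of the arms (94.4 to 98.6). That is a density ratio of 0.570 (conditional binomial interval 0.526 to 0.617). The *ab* list held 42.7 per Mb near the centromeres (39.04 to 46.5) and 78.3 per Mb on the rest (76.4 to 80.2), a ratio of 0.545 (0.497 to 0.597). Peaks covered 5.20 bp per kb near the centromeres against 9.38 on the rest in *scrib1*+*ab*, and 8.18 against 15.2 in *ab*. The peaks are not spread evenly, and the variation along the arms was wide. Over bins of 0.5 Mb the *scrib1*+*ab* list held 29.3 ± 20.4 peaks per bin near the centromeres (SD, n = 22 bins) and 48.0 ± 21.2 on the rest (n = 168 bins). The *ab* list held 22.9 ± 18.3 and 38.8 ± 17.1. Single bins overlapped widely between the windows, with 2 to 73 *scrib1*+*ab* peaks, and the rest, with 5 to 120.

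The 4 arms differed in how sparse they were. X was the sparsest, with 72 *scrib1*+*ab* peaks at 29.9 per Mb near the centromere against 97.9 per Mb on the rest of X, a ratio of 0.305 (0.238 to 0.386). In *ab* the X window held 58 peaks at 24.1 per Mb against 86.1 per Mb, a ratio of 0.280 (0.212 to 0.363). 3R was the least sparse, with 161 *scrib1*+*ab* peaks and a ratio of 0.807 (0.684 to 0.946), and 121 *ab* peaks and a ratio of 0.829 (0.684 to 0.996). The intervals of X and 3R do not meet in either list, but they cover counting error only. In bins of 0.5 Mb the 3R window held 40.25 ± 23.8 *scrib1*+*ab* peaks (SD, n = 4 bins) against 49.6 ± 23.0 on the rest of 3R (n = 51 bins). The *ab* list held 30.25 ± 21.7 and 36.3 ± 16.9 peaks in the same bins. On 3L the *scrib1*+*ab* list had 257 peaks and a ratio of 0.574 (0.502 to 0.654), and the *ab* list had 219 peaks and a ratio of 0.577 (0.499 to 0.665). On 2L the *scrib1*+*ab* list had 165 peaks and a ratio of 0.629 (0.533 to 0.738), and the *ab* list had 110 peaks and a ratio of 0.516 (0.421 to 0.626). The 2L and 3L values lie between those of X and 3R, and their intervals overlap each other in both lists.

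**Figure D1:**
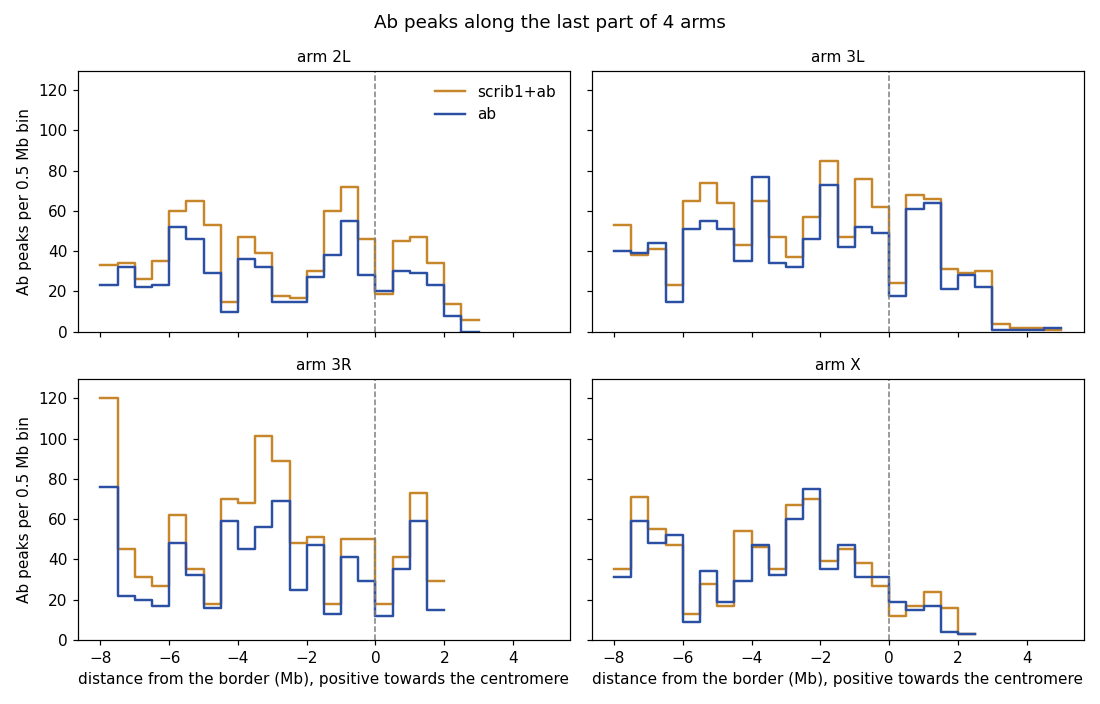
Number of Ab peaks per 0.5 Mb bin (vertical axis) against the distance from the border of each window in Mb (horizontal axis, positive towards the centromere) on 2L, 3L, 3R and X, for the *scrib1*+*ab* and *ab* lists; the last bin on 2L, 3L and X is shorter than 0.5 Mb. The 3L counts drop to between 1 and 4 peaks per bin from 3 Mb beyond the border, whereas on 3R the bin with 73 *scrib1*+*ab* and 59 *ab* peaks lies inside the window.

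The peaks were not thinned evenly along the windows. On 3L the numbers in the first Mb beyond the border, 92 in *scrib1*+*ab*, and in the next Mb, 97, were close to the 98.8 per Mb of the rest of the arm. They were 59 in the third Mb and 6 in the fourth. The *ab* list went the same way on 3L, with 79, 85, 50 and 2 peaks per Mb, against 83.6 per Mb on the rest of the arm. Beyond 23 Mb, a stretch of 1.54 Mb, 3L held 9 *scrib1*+*ab* peaks and 5 *ab* peaks. Of these, only 2 from each list overlapped, one of them at 24021495 to 24021660 (166 bp) in *scrib1*+*ab* and 24021496 to 24021637 (142 bp) in *ab*. Past that peak came the longest stretch without a peak of either list on the 4 arms, from 24021661 to 24529148 (507 kb). The longest such stretch on the rest of 3L was 341 kb.

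On 3R the order was the other way round. The Mb next to the border held 59 *scrib1*+*ab* peaks and 47 *ab* peaks, and the Mb at the base of the arm held 102 and 74, against 99.8 and 73.0 per Mb on the rest of 3R. The bin from 0.5 to 1 Mb held 73 *scrib1*+*ab* and 59 *ab* peaks, and no other bin in the windows held as many *scrib1*+*ab* peaks. Peaks reached the very end of the assembled arm. The first *ab* peak of 3R ran from 291 to 1138 (848 bp, the longest *ab* peak of that window) and met 3 *scrib1*+*ab* peaks, of which the first ran from 483 to 694 (212 bp). Below 0.5 Mb the *scrib1*+*ab* list held 29 peaks, of which 13 overlapped an *ab* peak, and the *ab* list held 15, of which 11 overlapped a *scrib1*+*ab* peak.

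On X the counts were low from the border on. The 5 bins beyond it held 12, 17, 24, 16 and 3 *scrib1*+*ab* peaks and 19, 15, 17, 4 and 3 *ab* peaks, and no full bin in the X window reached the mean of the rest of X, which was 49.1 ± 19.2 in *scrib1*+*ab* and 43.3 ± 15.8 in *ab* (SD, n = 39 bins). Beyond 22 Mb the lists held 3 peaks each and no peak overlapped. The *scrib1*+*ab* peaks there (51 to 90 bp) and the *ab* peaks (99 to 157 bp) were 21104 to 24798 bp from the nearest peak of the other list.

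On 2L the bins held 19, 45, 47, 34, 14 and 6 *scrib1*+*ab* peaks from the border inwards, and 20, 30, 29, 23, 8 and 0 *ab* peaks. The lists parted at the inner end of this arm. Beyond 22.5 Mb there were 6 *scrib1*+*ab* peaks of 42 to 95 bp and 0 *ab* peaks. The 2 innermost were at 22960896 to 22960952 (57 bp) and 22961041 to 22961101 (61 bp), and the *ab* peak nearest to any of the 6 was 484053 to 791780 bp away. The *ab* list ended on 2L with a peak at 22169201 to 22169260 (60 bp). These 6 peaks come from 1 library, and the stretch was picked out after the counts per bin were seen.

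Near the centromeres the *scrib1*+*ab* list had more peaks than the *ab* list, by a ratio of 1.29 (1.15 to 1.45). On the rest of the arms the ratio was 1.23 (1.19 to 1.27). These intervals overlap, but the difference between the ratios was not given its own interval. The intervals also treat the lists as independent, although many sites were called in both. Near the centromere the ratio was 1.50 on 2L (1.17 to 1.93), 1.33 on 3R (1.04 to 1.70), 1.24 on X (0.866 to 1.79) and 1.17 on 3L (0.976 to 1.41), and these intervals overlap. In covered bp the order of the lists was reversed, with 61876 bp of *scrib1*+*ab* peaks and 97351 bp of *ab* peaks, a ratio of 0.636 near the centromeres and 0.617 on the rest. Without peaks under 40 bp the ratio of peak numbers near the centromeres was 1.02 (0.903 to 1.16). That ratio was not computed on the rest of the arms, so the fall to 1.02 is not shown to be particular to the windows. Peaks under 40 bp were no more frequent in the windows. They made up 22.1% of *scrib1*+*ab* peaks near the centromeres and 24.1% on the rest, and 1.97% and 2.71% of *ab* peaks.

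Over the 4 arms together, peaks near the centromeres and elsewhere were of similar median length. In *scrib1*+*ab* the median length was 69 bp near the centromeres (interquartile range 42.5 to 111, range 15 to 559) and 68 bp on the rest (41 to 117). In *ab* the median was 153 bp (96 to 248, range 30 to 1425) and 150 bp (90 to 248). Peaks of 200 bp or more made up 9.16% of *scrib1*+*ab* peaks near the centromeres and 10.2% on the rest, a difference of -1.04 percentage points (Newcombe interval -3.13 to 1.49). For *ab* peaks the shares were 35.4% and 35.6%, a difference of -0.16 points (-4.36 to 4.25). Peaks under 40 bp differed by -1.97 points (-5.12 to 1.49) in *scrib1*+*ab* and -0.74 points (-1.73 to 0.92) in *ab*. By arm, the *scrib1*+*ab* difference was -6.99 points on 2L (-12.0 to -0.54), where 14.5% of peaks near the centromere and 21.5% on the rest were under 40 bp. It was -8.59 on X (-15.4 to 1.63), 2.07 on 3L (-3.07 to 7.91) and 2.53 on 3R (-4.28 to 10.2), so that the arms differed in sign and 2L alone had an interval without 0. In *ab* the interval included 0 on each arm. Among the windows the *scrib1*+*ab* medians ran from 61 bp on 3R to 77 bp on 2L, and the *ab* medians from 138.5 bp on X to 176 bp on 3R.

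The windows also held long peaks, most of them in both lists. The longest of all was an *ab* peak on 3L at 21246365 to 21247789 (1425 bp), which met the longest *scrib1*+*ab* peak of the windows at 21247194 to 21247752 (559 bp). On 2L the longest *ab* peak, at 20799827 to 20800889 (1063 bp), met 3 *scrib1*+*ab* peaks, among them the longest pair of that window at 20800457 to 20800913 (457 bp) and 20799964 to 20800407 (444 bp). The next longest *ab* peak on 2L, at 21237153 to 21238103 (951 bp), met 5 *scrib1*+*ab* peaks of 26 to 126 bp, more than any other *ab* peak in the windows. On 3R the longest *scrib1*+*ab* peak, at 709262 to 709722 (461 bp), met an *ab* peak at 709201 to 709738 (538 bp). On X the longest of each list met one another, at 21152169 to 21152472 (304 bp) in *scrib1*+*ab* and 21151816 to 21152503 (688 bp) in *ab*. In each window the 3 longest peaks of each list overlapped the other list. Long peaks mostly did so on the rest of the arms too. There 246 of 247 *scrib1*+*ab* peaks and 949 of 1037 *ab* peaks of 320 bp or more overlapped the other list.

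Several sites were called with nearly the same ends in both libraries. At the 3R border the *scrib1*+*ab* peak ran from 1996445 to 1996822 (378 bp) and the *ab* peak from 1996458 to 1996813 (356 bp), and the first inside the 3L border spanned 20090446 to 20090707 (262 bp) in *scrib1*+*ab* and 20090439 to 20090708 (270 bp) in *ab*. On 2L a *scrib1*+*ab* peak from 21250774 to 21251171 (398 bp) lay on an *ab* peak from 21250770 to 21251156 (387 bp). Such likeness was not the rule. In the 295 pairs of peaks that were each other's best overlap, the *ab* peak was the longer in 243 (82.4%), with a median length ratio of *ab* over *scrib1*+*ab* of 1.75 (interquartile range 1.13 to 2.85). On the rest of the arms the *ab* peak was the longer in 82.8% of 3929 pairs, with a median ratio of 1.74. By arm the median ratio near the centromeres was 1.71 on 2L, 1.57 on 3L, 2.09 on 3R and 1.90 on X. The widest contrast was on 3R, where a *scrib1*+*ab* peak from 868853 to 868891 (39 bp) lay within an *ab* peak from 868491 to 869012 (522 bp). The opposite contrast was smaller: on 2L a *scrib1*+*ab* peak from 21883360 to 21883656 (297 bp) met an *ab* peak from 21883329 to 21883451 (123 bp).

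**Figure D2:**
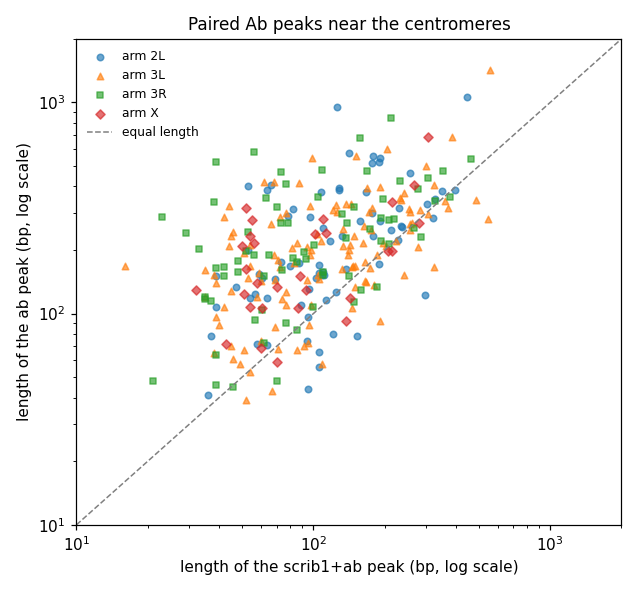
Length of the *ab* peak (vertical axis, bp, log scale) against the length of the *scrib1*+*ab* peak (horizontal axis, bp, log scale) for the 295 pairs near the centromeres; each point is a pair, its colour and shape give the arm, and the dashed line marks equal length. The *ab* peak is longer, above the line, in 243 pairs, and points of every arm lie on both sides of the line.

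A peak that overlapped the other list by 1 bp or more was called shared. Over the whole lists 58.2% of *scrib1*+*ab* peaks and 59.1% of *ab* peaks were shared. Near the centromeres 350 of 655 *scrib1*+*ab* peaks were shared, 53.4% (Clopper-Pearson interval 49.5 to 57.3), against 58.1% on the rest of the arms, a difference of -4.66 percentage points (-8.63 to -0.73). Of the *ab* peaks, 299 of 508 were shared, 58.9% (54.4 to 63.2), against 59.3%, a difference of -0.45 points (-4.93 to 3.91). Sharing near the centromeres was thus at the background of the list in *ab*, and a little below it in *scrib1*+*ab*. The interval of the *scrib1*+*ab* difference included 0 without X (-3.16 points, -7.39 to 1.02) and without 3L (-4.78, -9.83 to 0.23). It also included 0 with the border moved by 1 Mb, at -4.18 nearer to the centromere and -1.84 away from it. The *scrib1*+*ab* difference stayed negative in every alternative, and its interval left out 0 in 6 of them (-7.17 to -4.92 points).

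By arm, X had the lowest share. There 31 of 72 *scrib1*+*ab* peaks were shared, 43.1% (31.4 to 55.3), against 58.8% on the rest of X, a difference of -15.8 points (-26.8 to -4.05). In *ab* 29 of 58 X peaks were shared, 50% (36.6 to 63.4), against 57.2%, a difference of -7.21 points (-19.9 to 5.47). On 2L the lists differed in sign. There 89 of 165 *scrib1*+*ab* peaks were shared (53.9%, a difference of -3.83 points, -11.8 to 3.95). Of the *ab* peaks 72 of 110 were shared (65.5%, a difference of 6.55 points, -3.05 to 15.2). These shares count the same overlaps from both sides over lists of unequal size, so they are not separate observations. 3L had 141 of 257 *scrib1*+*ab* peaks (54.9%) and 124 of 219 *ab* peaks (56.6%) shared, and 3R had 89 of 161 (55.3%) and 74 of 121 (61.2%). On 2L, 3L and 3R every interval of the difference included 0.

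**Figure D3:**
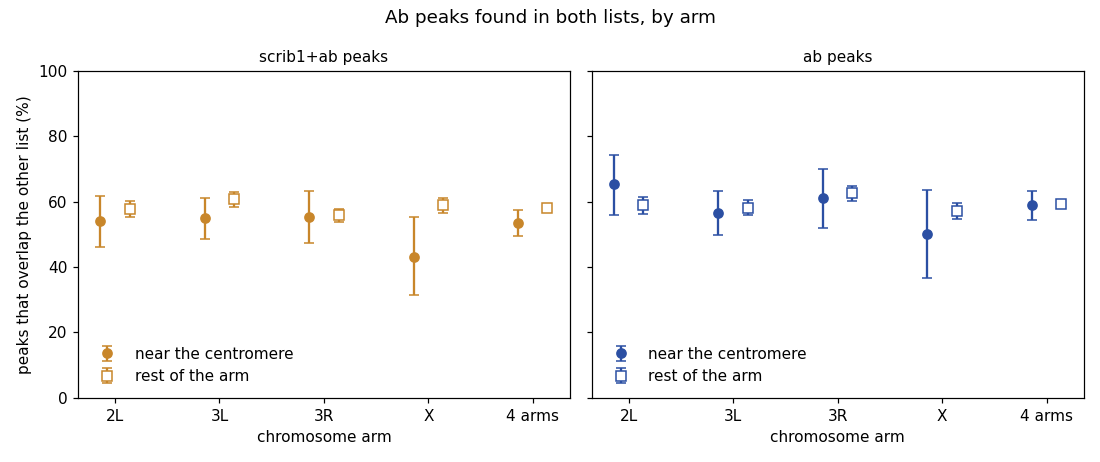
Percentage of peaks that overlap a peak of the other list (vertical axis) by chromosome arm (horizontal axis), for *scrib1*+*ab* peaks and for *ab* peaks; filled circles are peaks near the centromere, open squares peaks on the rest of the arm, and bars are exact 95% binomial intervals. The X window is lowest in both panels, at 43.1% in *scrib1*+*ab* and 50% in *ab*.

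Sharing depended on length in the windows as on the rest of the arms. In *scrib1*+*ab*, 39 of 145 peaks under 40 bp near the centromeres were shared (26.9%), 112 of 240 peaks of 40 to 79 bp (46.7%), 110 of 174 from 80 to under 160 bp (63.2%), 72 of 79 from 160 to under 320 bp (91.1%) and 17 of 17 of 320 bp or more. In *ab* the shares in the same classes were 2 of 10, 31 of 84 (36.9%), 78 of 173 (45.1%), 123 of 171 (71.9%) and 65 of 70 (92.9%). On the rest of the arms the *scrib1*+*ab* shares in these classes were 28.9%, 50.7%, 73.1%, 93.0% and 99.6%. The *ab* shares there were 15.4%, 33.3%, 51.8%, 69.9% and 91.5%. Of the 10 differences between windows and rest, the interval left out 0 in 1 class, *scrib1*+*ab* peaks from 80 to under 160 bp, at 63.2% near the centromeres and 73.1% on the rest (-9.85 points, -17.4 to -2.78). At the rates of the rest of the arms in the same length classes, 58.2% of the *scrib1*+*ab* peaks and 59.6% of the *ab* peaks near the centromeres would be shared. The *scrib1*+*ab* share of 53.4% was below that value and the *ab* share of 58.9% was near it.

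**Figure D4:**
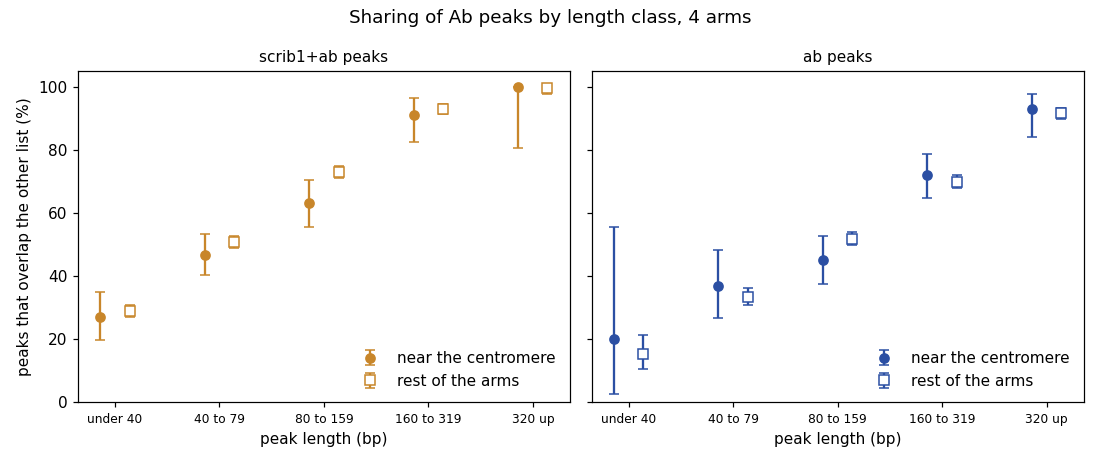
Percentage of peaks that overlap a peak of the other list (vertical axis) by peak length class in bp (horizontal axis), for *scrib1*+*ab* peaks and for *ab* peaks; filled circles are peaks near the centromeres, open squares peaks on the rest of the 4 arms, and bars are exact 95% binomial intervals. Sharing is higher in longer classes, reaching 17 of 17 *scrib1*+*ab* peaks and 65 of 70 *ab* peaks of 320 bp or more near the centromeres.

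By distance from the border, the share in *scrib1*+*ab* was 52.9% in the first Mb (46.4 to 59.3), 55.9% in the second (50.3 to 61.5) and 46.2% further in (35.6 to 56.9). In *ab* it was 52.9% (45.9 to 59.8), 65.1% (58.6 to 71.2) and 56.1% (43.3 to 68.3). These intervals overlap within each list, but between the first and second Mb in *ab* only from 58.6 to 59.8. Differences between the zones were not given intervals, so the overlap does not show that the zones were alike. The lowest share in a zone of 1 Mb with at least 20 peaks was on 2L beyond 22 Mb, where 4 of 20 *scrib1*+*ab* peaks and 4 of 8 *ab* peaks were shared.

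Peaks near the centromeres were further from their neighbours. Distances between peaks grow as density falls, so those given here are not a result apart from the lower density. The median gap to the nearest peak of the same list was 431 bp near the centromeres and 277 bp on the rest in *scrib1*+*ab*, and 636.5 bp and 347.5 bp in *ab*. Even so, 52.8% of *scrib1*+*ab* peaks (48.9 to 56.7) and 47.0% of *ab* peaks (42.6 to 51.5) near the centromeres had a neighbour within 500 bp, about the size of the sonicated fragments. On the rest of the arms these shares were 61.2% (60.2 to 62.3) and 57.0% (55.8 to 58.2). Peaks without an overlap were also further from the other list. For the 305 such *scrib1*+*ab* peaks the nearest *ab* peak was a median of 1946 bp away, against 819.5 bp on the rest, and for the 209 such *ab* peaks the nearest *scrib1*+*ab* peak was 1532 bp away, against 723.5 bp. Within 500 bp of the other list lay 31.8% of these *scrib1*+*ab* peaks and 32.1% of these *ab* peaks, against 41.1% and 43.5% on the rest of the arms.

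The longest peaks without an overlap were shorter than the longest shared ones in each window. For *scrib1*+*ab* they were at 22019485 to 22019717 on 2L (233 bp), 23142644 to 23142853 on 3L (210 bp, 53924 bp from the nearest *ab* peak), 727517 to 727663 on 3R (147 bp) and 21883605 to 21883766 on X (162 bp, 24961 bp from the nearest *ab* peak). For *ab* they were at 20825341 to 20825633 on 2L (293 bp), 21245513 to 21245988 on 3L (476 bp), 708676 to 709014 on 3R (339 bp) and 21222439 to 21222730 on X (292 bp, 6219 bp from the nearest *scrib1*+*ab* peak). The *ab* peak on 3R was 247 bp from the longest *scrib1*+*ab* peak of that window (709262 to 709722, 461 bp). The nearest *scrib1*+*ab* peak to the *ab* peak on 3L was 517 bp away and short (21244919 to 21244995, 77 bp).

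Within an arm the lists are not ordered by position, and what sets their order is not given in the sources used here. The median place of a peak within the list of its arm was 54.3% of the way down near the centromeres and 49.6% on the rest in *scrib1*+*ab*, and 52.2% and 49.9% in *ab*. A few peaks of the windows stood very near the top in both lists, such as the pair on 3R at 530940 to 531266 (327 bp) in *scrib1*+*ab* and 530943 to 531284 (342 bp) in *ab*.

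Genes could be placed in the windows only from the study's own material, and all of them were picked by the study from results in these discs, so that the peaks at them are a description. *skd* encodes Med13, a subunit of the Mediator kinase module, and lies on 3L. Its span, read from the scale of a browser panel of the study, held 22 *scrib1*+*ab* peaks of 16 to 282 bp, of which 18 were shared, and 17 *ab* peaks of 67 to 557 bp, of which 14 were shared. They fell into groups. Between 21000640 and 21008045 peaks followed each other closely. The largest *scrib1*+*ab* peak there spanned 21007517 to 21007798 (282 bp), and the largest *ab* peak spanned 21001069 to 21001625 (557 bp). A further group lay between 21016519 and 21020342. *Pc*, also on 3L, encodes the chromodomain subunit of Polycomb repressive complex 1. Its span held 1 peak of each list, at 21311131 to 21311293 (163 bp) in *scrib1*+*ab* and 21311047 to 21311306 (260 bp) in *ab*, and these overlapped.

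Of 183 genes for which the study lists probe set alignments, 9 had an alignment in a window, and for 4 of these each probe set aligned once, inside the window. *spir* (2L 20311218 to 20348395), which encodes the actin nucleator Spire, held 1 peak of each list, at 20311316 to 20311421 (106 bp) in *scrib1*+*ab* and 20311391 to 20311456 (66 bp) in *ab*, and these overlapped. *CG33054* (*Targ1* in RefSeq, 3L 21190510 to 21195978) met 3 *scrib1*+*ab* peaks of 46 to 58 bp, 2 of them shared, and 2 *ab* peaks of 61 and 120 bp, both shared. The longest of each list lay mostly beyond the end of the span, at 21195972 to 21196029 in *scrib1*+*ab* and 21195977 to 21196096 in *ab*. *CG33169* (3L 22856963 to 22858309) held 1 *scrib1*+*ab* peak at 22857377 to 22857467 (91 bp), which was not shared, and met 2 *ab* peaks of 142 and 180 bp. The longer *ab* peak began before the span, at 22856817, and overlapped a *scrib1*+*ab* peak just outside the span, at 22856844 to 22856914 (71 bp). *l(1)G0196* (X 21889018 to 21909287), which encodes an inositol phosphate kinase, had a *scrib1*+*ab* peak of 48 bp (21889396 to 21889443) and another of 74 bp (21889915 to 21889988), but 0 from the *ab* list, whose nearest call was 30374 bp off. Of these 4 genes it was the one with peaks in 1 list only. Which exons, introns or untranslated regions the peaks lie in was not analysed here, since no dm3 annotation was used.

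The border of a window is a fixed position, and the peaks just outside it differed from arm to arm. On 3L the nearest peak outside, shared by both lists, was 245 bp from it in *scrib1*+*ab* (19999672 to 19999838, 167 bp) and 375 bp in *ab* (19999393 to 19999857, 465 bp). On 3R the nearest outside were at 2035909 to 2036041 (133 bp) in *scrib1*+*ab* and 2035922 to 2036029 (108 bp) in *ab*, which overlapped. On 2L the nearest inside were at 20017152 to 20017364 (213 bp) in *scrib1*+*ab* and 20000570 to 20000624 (55 bp) in *ab*, and the nearest outside at 19950990 to 19951278 (289 bp) in *scrib1*+*ab* and 19987048 to 19987113 (66 bp) in *ab*. On X the border fell in the longest stretch without a peak of either list on the rest of that arm, 271 kb between *ab* peaks at 19789012 to 19789137 (126 bp) and 20059915 to 20060104 (190 bp), and the first *scrib1*+*ab* peak inside was at 20102168 to 20102271 (104 bp).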

How the data were processed

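Ab was immunoprecipitated from mosaic eye/antennal discs of 2 genotypes, with 1 pooled library and 1 input each. By the study's methods the authors aligned reads to dm3 with Bowtie at default parameters and called peaks against the normalised input with PeakSeq (READLENGTH 40, MAXGAP 40, MINFDR 0.01, PVALTHRESH 0.0001). How reads from repeated sequence were treated is not given in the sources used here. Each deposited list gives the arm, start and end of a peak, with a deposited score of 1 in every row, so that strength, read depth and the calling threshold could not be examined. The inputs have no list here and were not analysed.

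Starts were converted to positions counted from 1. Peaks were assigned by midpoint, and density was taken from the border to the outermost peak of either list. Intervals were exact binomial for shares, exact Poisson for densities, conditional binomial for ratios and Newcombe for differences of shares, at 95%, with Python 3.11.15, NumPy 2.4.6 and SciPy 1.17.1. The overlap count and the intervals were tested on simulated data. Peaks cluster, so these intervals are narrower than the variation along an arm. The values 53.4% and 58.9% shared rest on 655 and 508 peaks, which gives about 4 percentage points on either side.

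Named peaks were, in each window and list, the 3 longest, the longest without an overlap, those on either side of the border and the innermost, and other peaks named were chosen after their values were seen. The members, lists and comparisons were chosen with earlier results of these data known. Genes were placed by the study's probe set alignments or the scale of its browser panels, and all 6 names matched RefSeq on the same arm. Alternatives moved the border by 1 Mb, joined peaks within 500 bp, left out short peaks or 1 arm, or changed the overlap that counts as shared.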

Additional observations from a re-analysis of the deposited data

How the results depend on the processing

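The lower density near the centromeres kept its direction, with an interval below 1, in all 10 alternatives for each list, at ratios of 0.524 to 0.704 in *scrib1*+*ab* and 0.485 to 0.662 in *ab*. Whole arm lengths from a dm3 reference were not run as a basis for density, since none was used here. No alternative took account of how much of the sequence reads could be placed on. The median *scrib1*+*ab* length near the centromeres moved to 94 bp with peaks within 500 bp joined, 83.5 bp without peaks under 40 bp and 110 bp in the longer 50% of the list. The *ab* median moved to 209 bp with peaks joined, 247 bp in the longer 50% and 165.5 bp with the border 1 Mb nearer to the centromere. Leaving out short peaks or keeping the longer 50% raises a median by construction, and joining makes peaks longer. Medians of the rest of the arms were not computed under these settings, so they do not bear on the comparison of windows with rest. The ratio of *scrib1*+*ab* to *ab* peaks near the centromeres was 1.02, with an interval that included 1, without peaks under 40 bp. In covered bp it was 0.636, the opposite direction. The ratio without short peaks was not computed on the rest of the arms.

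The difference in sharing, windows minus rest, was negative in *scrib1*+*ab* in every alternative. Its interval left out 0 in 6 of them (-7.17 to -4.92 points). In *scrib1*+*ab* the interval included 0 with the border 1 Mb nearer to the centromere (-4.18 points), the border 1 Mb further out (-1.84), the longer 50% of the list (-4.52), 3L left out (-4.78), X left out (-3.16) and a reciprocal overlap of 50% (-2.25). In *ab* the main difference was near 0, at -0.45 points (-4.93 to 3.91). It changed sign with the border nearer (3.98) or further out (2.96), 3L left out (0.878), 3R left out (0.0911) and equal numbers of peaks in both lists (0.0522). The *ab* interval left out 0 when a gap of up to 500 bp counted as shared (-4.94). The cause was not tested. No paired analysis was possible because each genotype has 1 library, and for the same reason no replicate could be left out.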
